A study of Homo sapiens and synthetic construct with 52 samples.

Results

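The guides described here are the 113 single guide RNAs (sgRNAs) of a genome-wide CRISPRi library that target 22 genes of the pyruvate dehydrogenase complex, the mitochondrial pyruvate carrier and the tricarboxylic acid (TCA) cycle. They were taken by gene symbol from the 103074 guides of the library, which target 18788 genes and include 1895 non-targeting guides. Of the 22 genes, 19 have 5 guides, PDHX and MPC2 have 4, and IDH3A has 10 because its 2 annotated start sites, P1 and P2, were each given 5. In CRISPRi, a catalytically dead Cas9 fused to the KRAB repressor is brought by the guide to the start of a gene and lowers its transcription. The cells were K562, an established chronic myeloid leukemia line, as a pool of cells sorted for dCas9-KRAB. Neither transcript nor protein levels of the targets were measured, so the strength of each knockdown is not known.

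The same guides were cloned with an optimized protocol (LGR library) or came from an existing pool (legacy library). In the survival screens, LGR cells were carried at 100-fold or 1000-fold cell coverage for 7 days, with 4 libraries at the end (Tf) and 2 at the start (T0) at 100-fold coverage, and 3 at Tf and 1 at T0 at 1000-fold coverage. In the dasatinib screens, at 100-fold coverage with each library, cells received 1 dose of 0.75 nM dasatinib, an inhibitor of BCR-ABL1 and other tyrosine kinases, or 0.01% DMSO as vehicle, for 72 h with 6 days of recovery, with 2 replicates per treatment and 2 T0 samples. These replicates were split from 1 transduction per library, and for the survival screens the labels do not say that replicates came from separate cultures, so the edgeR p-values measure a spread that may be only technical. All cells carried dCas9-KRAB and were selected with puromycin.

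Pyruvate enters mitochondria through the carrier formed by MPC1 and MPC2 and is converted to acetyl-CoA by the pyruvate dehydrogenase complex, in which PDHA1 and PDHB form the E1 decarboxylase, DLAT is the E2 acetyltransferase, DLD is the E3 dihydrolipoamide dehydrogenase and PDHX binds E3 to the core. The TCA cycle then runs from citrate synthase (CS) through the NAD-dependent isocitrate dehydrogenase (IDH3), the 2-oxoglutarate dehydrogenase complex (OGDH as E1, DLST as E2 and the same DLD as E3), succinyl-CoA ligase, succinate dehydrogenase (SDH, which is also complex II of the respiratory chain), fumarase (FH) and malate dehydrogenase (MDH2). DLD is therefore a subunit of both 2-oxoacid dehydrogenase complexes.

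CRISPRi guides lie at gene starts, so the sequence before the RefSeq start of 4 of the genes is shown for context. PDHA1 and DLAT represent genes whose guides fell under dasatinib, and DLST and FH genes whose guides fell during growth. Each is the 250 bases before the start in GRCh38.p14, written 5′ to 3′ on the coding strand, at chrX:19343677-19343926 (plus strand), chr11:112025158-112025407 (plus), chr14:74881666-74881915 (plus) and chr1:241519756-241520005 (minus). Capitals mark matches on either strand to 4 short motifs, which are TGCGCA (contained in the NRF1 consensus), CCGGAAG (a core of ETS factors), GGGCGG (the GC box) and CCAAT.
PDHA1: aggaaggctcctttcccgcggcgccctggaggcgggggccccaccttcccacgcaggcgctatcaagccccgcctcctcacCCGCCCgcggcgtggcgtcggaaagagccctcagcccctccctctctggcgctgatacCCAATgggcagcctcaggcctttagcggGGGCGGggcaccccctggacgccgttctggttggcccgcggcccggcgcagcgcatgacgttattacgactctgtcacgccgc
DLAT: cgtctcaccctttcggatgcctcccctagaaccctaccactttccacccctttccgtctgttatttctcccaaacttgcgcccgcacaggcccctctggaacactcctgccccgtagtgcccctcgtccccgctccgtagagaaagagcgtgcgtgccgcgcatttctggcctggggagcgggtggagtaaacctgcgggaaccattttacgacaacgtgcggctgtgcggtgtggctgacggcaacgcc
DLST: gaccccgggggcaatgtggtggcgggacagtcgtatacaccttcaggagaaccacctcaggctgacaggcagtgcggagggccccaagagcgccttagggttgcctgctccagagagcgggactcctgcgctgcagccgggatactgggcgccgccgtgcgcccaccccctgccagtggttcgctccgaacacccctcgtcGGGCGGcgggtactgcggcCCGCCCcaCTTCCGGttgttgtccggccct
FH: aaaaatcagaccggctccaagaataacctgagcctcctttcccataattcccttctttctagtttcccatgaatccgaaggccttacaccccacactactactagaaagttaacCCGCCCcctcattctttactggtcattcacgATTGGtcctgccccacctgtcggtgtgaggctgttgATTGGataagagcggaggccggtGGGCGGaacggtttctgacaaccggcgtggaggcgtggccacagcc

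A RefSeq entry matched 20 of the 22 genes, and none was matched for OGDH and SDHC. TGCGCA was present in 6 of the 20 windows, against 7.05% of all 27305 windows of the same length, CCGGAAG in 6 (8.82% of all), GGGCGG in 12 (42.3%) and CCAAT in 9 (33.0%). The 20 windows held 11 to 35 CG dinucleotides (median 24, against 11 over all windows). A match is a description of letters, not of a bound site. The guide names give hg19 positions, so guides were not placed in these windows.

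The files give, for each guide, the number of reads assigned to it. Libraries of the survival screens summed to 47678549 to 111002750 reads and those of the dasatinib screens to 15739255 to 19844033. Single guides were compared with edgeR's quasi-likelihood test over every guide that reached 10 counts in some library of the comparison, and genes with a score that takes the mean log2 ratio of the 3 strongest guides of a start site, set to 0 at the median non-targeting guide (the phenotype), and an exact two-sided Mann-Whitney test against the non-targeting guides. The p of the score rests on the spread between guides and not on the spread between libraries, which the SD of a phenotype gives. Guides enter the score only with a mean of 50 or more counts in either arm, and a start site needs 3 of them. A call is an adjusted p under 0.05 over all guides or all start sites. Levels are given below as CPM, counts scaled to the total of the library, summed over the guides of a gene, and n is the number of Tf, DMSO or dasatinib samples behind an SD of a phenotype, whose reference mean is shared.

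During growth, guides against DLD, DLST, SDHC, FH and the P1 start of IDH3A were depleted, as were some guides against OGDH, SDHA and SDHB. The genes of E1 and E2 of pyruvate dehydrogenase and of the pyruvate carrier, CS and MDH2 were not called lower by the gene score. The gene score called 9 of 22 genes lower at 100-fold coverage (7.11% of all genes scored) and 7 of 22 at 1000-fold coverage (7.75%). For DMSO against T0 it called 7 of 22 lower with the LGR library (6.18% of all genes) and 5 of 21 lower with the legacy library (5.63%). Called higher were 0 member genes at 100-fold coverage (0.0696% of all genes), 0 at 1000-fold coverage (0.123%), 1 for LGR DMSO against T0 (0.0865%) and 0 for legacy DMSO against T0 (0.126%). At an unadjusted p under 0.05, those scores put 1 member gene higher at 100-fold coverage, 2 at 1000-fold coverage and 1 with the legacy library. Counts over all genes at that p are not given for the score, so these have no share beside them. edgeR on counts summed per gene called 0, 3 and 1 member genes higher in those 3 comparisons, beside 53, 693 and 230 of all 18788 genes. The member genes were CS, MPC1 and PDHA1 at 1000-fold coverage (log2 fold changes of 0.16, 0.20 and 0.24) and PDHB with the legacy library (0.32).

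Among single guides, 30 of 112 member guides were called lower and 0 higher at 100-fold coverage (5.68% and 0.0437% of all guides). There 3 were higher at an unadjusted p under 0.05 and DESeq2 called 2 higher. Over all guides, 10972 of 102997 had such a p in either direction, and DESeq2 called 609 higher. At 1000-fold coverage, 34 of 112 member guides were lower and 3 higher (9.07% and 1.08% of all guides). For DMSO against T0, 32 of 112 were lower and 3 higher with the LGR library (7.42% and 0.535%), and 28 of 109 were lower and 1 higher with the legacy library (6.88% and 0.62%). With the dasatinib samples added to these 2 fits, 8 and 6 member guides were called lower, beside 1678 and 2471 of all guides. Where there were 2 T0 libraries, leaving 1 out gave fewer lower calls among all guides as among member guides. Those fits leave 1 T0 library, so only medians are given. The median log2 fold change of member guides was then -0.12 and -0.16 without 100-fold T0 replicate 1 or 2. It was -0.19 and -0.11 without LGR T0 replicate 1 or 2, and -0.19 and -0.21 without the legacy ones. With all libraries it was -0.13, -0.06, -0.16 and -0.25 in the 4 comparisons above, against 0.03, 0.01, 0.02 and 0.01 over all guides.

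The spread between member guides widened with growth. Dividing the 90th percentile of member guide counts by the 10th gave 14.5 to 18.6 in the 100-fold Tf libraries, against 2.54 and 2.58 at T0, and 8.21 to 10.4 in the 1000-fold Tf libraries, against 2.39 at T0. In the dasatinib screens this ratio was 40.6 and 40.7 in LGR DMSO libraries, against 3.09 and 3.13 at T0, and 116 and 110 in legacy DMSO libraries, against 9.85 and 10.4 at T0. Over all guides the same ratio reached 3.32 to 3.62 at 100-fold Tf and 3.78 and 3.83 in LGR DMSO libraries. Member guides at 0 counts numbered 2 and 6 in LGR DMSO libraries and 8 and 6 in legacy DMSO libraries.

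DLD, the E3 subunit of both complexes, was depleted with all 5 of its guides. Its guides summed to 6.38, 3.93, 3.67 and 7.21 CPM at 100-fold Tf, against 47.3 and 48.2 CPM at T0. At 1000-fold coverage the sums were 7.30, 10.04 and 8.95 CPM at Tf, against 47.9 CPM at T0. No Tf library came near a T0 library. The phenotype was -5.04 ± 1.42 at 100-fold coverage (SD, n = 4, exact adjusted p = 7.78e-11) and -3.50 ± 0.20 at 1000-fold coverage (n = 3, exact adjusted p = 4.59e-10). In the dasatinib screens DLD guides were already scarce at T0, with 22.6 and 21.3 CPM in LGR T0 libraries against 51.0 CPM in the LGR plasmid pool, and 9.01 and 14.6 CPM in legacy T0 libraries against 25.6 CPM in the legacy plasmid pool. They fell further to 3.25 and 7.35 CPM in LGR DMSO libraries (phenotype -2.37 ± 1.23, n = 2, exact adjusted p = 1.15e-06). In legacy DMSO libraries they summed to 1.66 and 1.57 CPM, too few for a gene score, and edgeR on the summed counts gave a log2 fold change of -2.89 ± 0.35 (SE, adjusted p = 1.01e-06).

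DLST, the E2 succinyltransferase, fell in all 4 growth comparisons. Its guides summed to 16.4, 10.7, 6.35 and 11.03 CPM at 100-fold Tf, against 50.8 and 53.5 CPM at T0, and to 12.8, 12.1 and 13.1 CPM at 1000-fold Tf, against 56.8 CPM at T0. The phenotypes were -4.91 ± 0.53 (n = 4, exact adjusted p = 4.09e-10) and -3.79 ± 0.17 (n = 3, exact adjusted p = 2.62e-10). Under DMSO the sums were 11.4 and 10.8 CPM in LGR libraries, against 37.8 and 35.4 CPM at T0, and 10.1 and 12.0 CPM in legacy libraries, against 26.1 and 30.1 CPM at T0. The phenotypes there were -3.71 ± 1.17 and -2.24 ± 0.14 (n = 2 each, exact adjusted p = 3.21e-08 and 0.00036). They rest on 5 guides with LGR and on 3 with legacy. The legacy guide at 75348636 fell by 4.97 ± 1.11 (SE, edgeR adjusted p = 0.00213). With 40 and 33 counts at T0, it was too scarce to enter the score. The guide at 75349052 on the plus strand had 72 and 138 counts in LGR DMSO libraries, the highest of the 5 DLST guides in both, and the other 4 had 0 to 58.

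OGDH, the E1 subunit, split by guide. The guides at 44646202 and 44646234 fell by 5.52 ± 1.49 and 4.15 ± 1.11 on the log2 scale at 100-fold coverage and by 5.21 ± 0.82 and 4.64 ± 0.70 at 1000-fold coverage (SE, edgeR adjusted p of 0.025, 0.0233, 1.67e-06 and 5.61e-07). The guide at 44646274 was also called lower in both survival screens, with log2 fold changes of -1.23 and -1.45. The remaining pair, at 44646661 and 44646669, had log2 fold changes of -0.24 to 0.04 there. The gene score called OGDH lower at 100-fold coverage (phenotype -4.29 ± 1.33, n = 4, exact adjusted p = 0.000578), and at 1000-fold coverage the phenotype of -3.89 ± 0.24 was not called (n = 3, exact adjusted p = 0.0878). It was called there with a threshold from pseudo-genes of non-targeting guides and without Tf replicate 3 (-4.00), and edgeR on summed counts called OGDH lower (log2 fold change -0.88 ± 0.11, SE, adjusted p = 1.37e-14). In LGR DMSO against T0 the call at -0.78 ± 0.11 (n = 2, exact adjusted p = 0.0468) was lost without DMSO replicate 1 (-0.71), DMSO replicate 2 (-0.86) or T0 replicate 2 (-0.74) and with 10 CPM added to every value (-0.26), and both strong guides were too scarce at T0 to enter that score, with 11 to 25 counts.

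IDH3A, the catalytic subunit of IDH3, fell at 1 of its start sites only. Guides at P1 summed to 24.8, 22.1, 20.9 and 20.0 CPM at 100-fold Tf, against 52.9 and 46.6 CPM at T0, and to 15.1 and 14.1 CPM in LGR DMSO libraries, against 32.9 and 31.8 CPM at T0. The P1 phenotype was -2.34 ± 0.39 at 100-fold coverage (n = 4, exact adjusted p = 0.0334, lost without Tf replicate 2 at -2.53), -1.93 ± 0.03 at 1000-fold coverage (n = 3, exact adjusted p = 0.0029) and -3.02 ± 0.52 in LGR DMSO against T0 (n = 2, exact adjusted p = 0.00374). In the legacy library it was -3.08 ± 0.51 and not called (n = 2, exact adjusted p = 0.165). One P1 guide, at 78442193, stayed between -0.05 and 0.16 on the log2 scale in those 4 comparisons. Guides at P2, at hg19 positions 78423861 to 78424258, had phenotypes of -0.03 to 0.32 in them, none called.

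The regulatory subunits IDH3B and IDH3G were not called in any growth comparison. IDH3B had phenotypes of -0.51 ± 0.12 at 100-fold coverage (n = 4), -0.18 ± 0.02 at 1000-fold coverage (n = 3), -0.44 ± 0.16 with LGR DMSO and -0.74 ± 0.29 with legacy DMSO (n = 2 each). Of its 5 guides, 2 fell and 1 rose in LGR DMSO against T0 by edgeR, and 1 fell in the legacy library. IDH3G lay between -0.08 and 0.11.

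Succinyl-CoA ligase showed small depletions of 2 of its 3 subunits. SUCLG1, the alpha subunit shared by both forms of the enzyme, fell in all 4 growth comparisons, with phenotypes of -0.97 ± 0.34 at 100-fold coverage (n = 4, exact adjusted p = 4.03e-06), -0.41 ± 0.09 at 1000-fold coverage (n = 3, exact adjusted p = 0.000645), -0.95 ± 0.46 with the LGR library (n = 2, exact adjusted p = 0.00212, lost without DMSO replicate 1 at -0.63) and -1.15 ± 0.40 with the legacy library (n = 2, exact adjusted p = 4.42e-05). Its guides summed to 22.5, 26.7, 21.0 and 29.0 CPM at 100-fold Tf, against 37.4 and 44.0 CPM at T0. SUCLA2, the ADP-forming beta subunit, fell in 3 of the 4, with phenotypes of -0.65 ± 0.29, -0.37 ± 0.04 and -0.84 ± 0.19 (100-fold, 1000-fold and legacy DMSO). The call at 1000-fold coverage was lost without Tf replicate 3 (-0.39) and the legacy call without DMSO replicate 1 (-0.71) or T0 replicate 1 (-0.86), and in LGR DMSO the phenotype was -0.56 ± 0.04 (n = 2, exact adjusted p = 0.159). SUCLG2, the GDP-forming beta subunit, had phenotypes of -0.17 to 0.23, none called.

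Of the SDH subunits, SDHC, a membrane anchor, was depleted with all 5 guides. Its sums were 2.52, 5.56, 2.89 and 5.29 CPM at 100-fold Tf, against 38.8 and 39.0 CPM at T0, and 6.15, 6.05 and 5.69 CPM at 1000-fold Tf, against 40.03 CPM at T0. In LGR DMSO libraries they were 1.57 and 2.60 CPM, against 24.6 and 24.7 CPM at T0, and in legacy DMSO libraries 1.78 and 2.96 CPM, against 20.3 and 28.2 CPM at T0. The groups did not overlap in any of the 4. The phenotypes were -4.68 ± 0.70 (n = 4), -3.46 ± 0.14 (n = 3), -4.87 ± 1.20 and -4.90 ± 0.16 (n = 2 each), with exact adjusted p of 4.59e-11, 1.49e-10, 1.37e-09 and 7.33e-08.

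SDHB, the iron-sulfur subunit, was called at 100-fold coverage (-1.99 ± 0.41, n = 4, exact adjusted p = 0.00384), and had phenotypes of -1.63, -3.70 and -1.60 without a call at 1000-fold coverage and in LGR and legacy DMSO. In these 3, pseudo-genes of 5 non-targeting guides, another way to set the threshold, called SDHB lower, as did edgeR on summed counts (adjusted p of 2.06e-14, 0.000636 and 0.00276). Its guide at 17380090 had log2 fold changes of 0.00 to 0.46 in these 4 comparisons, while those at 17380484 and 17380537 were called lower in all 4. SDHA, the flavoprotein, was called in none, with phenotypes of -1.70, -1.94, -2.66 and -2.67 that rest on the guides at 218477 and 218484. The guide at 218477 fell by 2.92 ± 0.42 at 100-fold and 3.21 ± 0.19 at 1000-fold coverage (SE, edgeR adjusted p of 5.76e-05 and 6.19e-19), and 0 of the guides at 218895 and 218905 fell. The pseudo-gene threshold called SDHA lower in all 4 comparisons. SDHD, the other membrane anchor, had phenotypes of -0.07 ± 0.20 and 0.07 ± 0.08 in the survival screens, 0.17 ± 0.17 in LGR DMSO and -0.56 ± 0.08 in legacy DMSO, none called.

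FH, which converts fumarate to malate, fell in all 4 growth comparisons, with lower phenotypes over the 9 days of the dasatinib screens than over the 7 days of the survival screens. Its guides summed to 22.4, 18.6, 19.2 and 23.0 CPM at 100-fold Tf, against 62.3 and 53.2 CPM at T0, and to 22.4, 24.9 and 22.1 CPM at 1000-fold Tf, against 57.8 CPM at T0. In LGR DMSO libraries they summed to 3.97 and 5.32 CPM, against 52.7 and 54.1 CPM at T0, and in legacy DMSO libraries to 5.27 and 4.76 CPM, against 44.8 and 33.0 CPM at T0. The phenotypes were -2.02 ± 0.29 (n = 4, exact adjusted p = 1.4e-08), -1.62 ± 0.09 (n = 3, exact adjusted p = 6.03e-09), -4.14 ± 0.47 and -3.33 ± 0.49 (n = 2 each, exact adjusted p = 2.98e-09 and 1.27e-07). By the paper's methods puromycin selection was longer in the dasatinib screens, so the T0 samples may differ too. The difference between the 2 kinds of screen was not tested. MDH2, the next enzyme, had phenotypes of -0.01 to 0.12.

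PDHA1, PDHB, DLAT, PDHX, MPC1, MPC2 and CS were not called lower in any growth comparison. Their phenotypes lay between -0.21 and 0.53 in the 4 comparisons, apart from DLAT in the legacy library at -0.84 ± 0.13 (n = 2, exact adjusted p = 0.798). PDHA1 was called higher in LGR DMSO against T0, with 56.5 and 48.6 CPM in DMSO libraries against 37.6 and 38.8 CPM at T0 (phenotype 0.53 ± 0.13, n = 2, exact adjusted p = 0.0245). That call was lost without DMSO replicate 1 (0.44), T0 replicate 1 (0.62) or T0 replicate 2 (0.82), and with the pseudo-gene threshold. The guides called higher by edgeR at 1000-fold coverage were 1 each of PDHB (0.53 ± 0.14), PDHA1 (0.47 ± 0.11) and SDHA (0.45 ± 0.11). Those called higher under DMSO were 1 each of PDHA1 (0.93 ± 0.27), IDH3B (0.68 ± 0.21) and DLAT (0.66 ± 0.19) in the LGR library and 1 of MPC1 (0.68 ± 0.17) in the legacy library.

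DLAT held 1 guide apart from the others. The guide at 111896480 on the plus strand had 42 and 48 counts in LGR DMSO libraries, against 145 and 158 at T0, and 11 and 12 counts in legacy DMSO libraries, against 60 and 70 at T0. It fell in both libraries (log2 fold changes of -1.60 and -2.43), and no other DLAT guide did. In the survival screens its log2 fold changes were 0.07 and -0.15. Another DLAT guide, at 111896201, had 1353 counts in the LGR plasmid pool, which was read on a HiSeq. It had 0 or 1 counts in every screen library and in the legacy pool, and did not reach the 10 counts needed for a test. The legacy pool and, by the paper's methods, the screen libraries were read on a NextSeq. The paper reports that this instrument can miss guides starting with a run of G. The series also lists the LGR pool read on a NextSeq, which was not used here. The sequence of this guide was not available either, so its loss and a failure to read it were not told apart. The DLAT guide at 111896155 and the SUCLG2 guide at 67705027 were at 0 in every legacy library.

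Against dasatinib the order of the genes was a different one. Guides against PDHA1, PDHB, DLAT, MPC1 and CS, none of them called lower during growth by the gene score, were scarcer in dasatinib-treated than in DMSO-treated cells. The gene score called 3 of 18 member genes lower with the LGR library (DLAT, PDHA1 and MPC1, 0.402% of all genes scored) and 4 of 18 with the legacy library (PDHB, PDHA1, CS and MPC1, 0.511%). Called higher were 0 with the LGR library (0.659% of all genes) and 1, FH, with the legacy library (0.675%). With the LGR library 0 member genes were higher by the score at an unadjusted p under 0.05, a count not given for all genes. There edgeR on summed counts called 0 member genes higher, beside 152 of all 18788 genes. DMSO libraries are the reference here and the tested arm of the growth comparisons above, so the 2 sets of values share samples.

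Single guides gave few calls in this contrast. With the LGR library, 0 of 106 member guides were called lower and 0 higher by edgeR (0.00393% and 0.0954% of all guides). At an unadjusted p under 0.05, 20 were lower and 9 higher, and DESeq2 called 7 lower and 2 higher. Over all guides, 12199 of 101701 had such a p in either direction, and DESeq2 called 355 lower and 1743 higher. With the legacy library, 15 of 102 member guides were lower and 11 higher at an unadjusted p under 0.05, and DESeq2 called 7 lower and 2 higher. Over all guides, 12810 of 100304 had such a p, and DESeq2 called 369 lower and 2044 higher. Here edgeR called 3 of 102 member guides lower and 0 higher (0.0349% and 0.572% of all guides). The 3 guides were PDHB at 58419323 (log2 fold change -2.30 ± 0.38, adjusted p = 0.0324) and PDHA1 at 19362083 (-2.13 ± 0.39, adjusted p = 0.047) and at 19362098 (-1.83 ± 0.33, adjusted p = 0.0485, edgeR). Without either legacy DMSO replicate 0 guides were called lower, and without legacy dasatinib replicate 1 or 2, 21 and 17 of 100 were, beside 6192 of 99971 and 6089 of 99904 of all guides. Without LGR dasatinib replicate 1 or 2, 21 and 20 of 106 were called lower, beside 9208 of 101433 and 8632 of 101429 of all guides. These fits leave 1 library in an arm, which is assumed to vary like the other arm. The median log2 fold change of member guides was -0.20 with the LGR and -0.14 with the legacy library, against 0.03 and 0.02 over all guides. The spread over all guides was also wider in dasatinib libraries, with a ratio of the upper to the lower of those percentiles of 6.48 and 6.57 in LGR dasatinib libraries, against 3.78 and 3.83 in DMSO libraries, and of 14.8 and 14.5 in legacy dasatinib libraries, against 10.7 and 10.97 in DMSO libraries. Its part in the results below was not tested.

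PDHA1, the catalytic alpha subunit of E1, was called lower in both pools. Its guides summed to 13.2 and 13.2 CPM in LGR dasatinib libraries, against 56.5 and 48.6 CPM in DMSO libraries, and to 32.6 and 24.6 CPM in legacy dasatinib libraries, against 87.6 and 82.9 CPM in DMSO libraries. All dasatinib libraries lay below all DMSO libraries of the same pool, and all 5 guides had negative log2 fold changes in both pools, from -2.49 to -1.41 with LGR and from -2.13 to -0.74 with legacy. The phenotype was -2.20 ± 0.15 with the LGR library (n = 2, exact adjusted p = 7.97e-07) and -1.82 ± 0.24 with the legacy library (n = 2, exact adjusted p = 0.000435). edgeR on the summed counts also called PDHA1 in both (log2 fold changes of -1.94 ± 0.21 and -1.53 ± 0.19, SE, adjusted p of 0.00613 and 0.00313), and the gene score kept both calls in every alternative run.

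PDHB, the beta subunit of E1, fell with the legacy library, where its guides summed to 22.3 and 20.7 CPM in dasatinib libraries, against 73.9 and 77.3 CPM in DMSO libraries (phenotype -2.17 ± 0.09, n = 2, exact adjusted p = 0.000155, lost without dasatinib replicate 1 at -2.49). With the LGR library the sums were 22.4 and 44.7 CPM under dasatinib, against 45.2 and 41.4 CPM under DMSO, and the groups overlapped. The guide at 58419178 set this apart, with 253 and 505 counts under dasatinib, against 191 and 127 under DMSO, while the other 4 LGR guides had log2 fold changes of -3.30 to -1.06. The LGR phenotype was -1.68 ± 1.31 and was not called (n = 2, exact adjusted p = 0.481). The edgeR difference between the libraries for PDHB, LGR minus legacy, was 1.47 ± 0.37 (SE, unadjusted p = 0.00178, adjusted p = 0.235).

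DLAT, the E2 subunit, summed to 13.8 and 14.4 CPM in LGR dasatinib libraries, against 49.99 and 51.5 CPM in DMSO libraries. Its phenotype of -2.26 ± 0.51 over 3 guides was called (n = 2, exact adjusted p = 0.00234), and the call was lost without dasatinib replicate 1 (-2.62) and with a minimum of 10 counts, which adds the guide at 111896480 (log2 fold change 0.21). edgeR on the summed counts gave -1.79 ± 0.20 (SE, adjusted p = 0.007). In the legacy library, where 2 of its guides had 0 counts, DLAT was not scored. It summed to 10.7 and 11.8 CPM under dasatinib, against 29.2 and 23.1 CPM under DMSO (edgeR -1.17 ± 0.25, SE, adjusted p = 0.0527). PDHX, the E3-binding protein, had phenotypes of 0.22 ± 0.55 and -0.24 ± 0.07, and sums of 57.1 and 34.6 CPM under dasatinib against 42.9 and 40.3 CPM under DMSO with the LGR library.

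MPC1, a subunit of the pyruvate carrier, had negative log2 fold changes for all 5 guides in both pools. It summed to 17.6 and 20.6 CPM in LGR dasatinib libraries, against 42.8 and 49.3 CPM in DMSO libraries, and to 30.1 and 55.0 CPM in legacy dasatinib libraries, against 82.4 and 84.1 CPM in DMSO libraries. The phenotypes were -1.54 ± 0.60 and -1.13 ± 0.45 (n = 2 each, exact adjusted p = 0.031 and 0.0301). These calls were close to the threshold. The LGR call was lost without any 1 of its libraries (-1.96 to -1.24) and with 10 CPM added to every value (-0.53), and the legacy call without dasatinib replicate 1 (-0.82) or DMSO replicate 2 (-1.17). MPC2, its partner, had phenotypes of -0.67 ± 0.01 and -0.42 ± 0.45, not called, and its sums under dasatinib were 22.1 and 23.8 CPM with LGR and 31.5 and 26.3 CPM with legacy, against 33.2 and 41.0 CPM and 33.5 and 39.3 CPM under DMSO.

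CS, which joins acetyl-CoA to oxaloacetate, also had 5 of 5 guides below 0 in both pools. Its guides summed to 28.6 and 32.8 CPM in LGR dasatinib libraries, against 64.0 and 69.2 CPM in DMSO libraries, and to 43.7 and 23.3 CPM in legacy dasatinib libraries, against 79.6 and 75.1 CPM in DMSO libraries. The legacy phenotype of -1.82 ± 0.59 was called (n = 2, exact adjusted p = 0.00276, lost without dasatinib replicate 2 at -1.41). The LGR phenotype of -1.67 ± 0.17 was not (n = 2, exact adjusted p = 0.198), and neither was CS by edgeR on summed counts (adjusted p of 0.0517 and 0.0598). The guide at 56694134 went lowest in both pools, with 33 and 53 counts under dasatinib, against 330 and 279 under DMSO, with LGR and 16 and 16 counts, against 80 and 98, with legacy.

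The genes depleted during growth left less to compare under dasatinib. DLD, DLST, SDHC and IDH3A P1 had too few counts for a dasatinib score in either pool under the minimum of 50, and so did FH in the LGR pool. With a minimum of 10 counts, IDH3A was called higher with the legacy library (1.85). FH guides summed to 11.8 and 10.1 CPM in LGR dasatinib libraries, against 3.97 and 5.32 CPM in DMSO libraries and 52.7 and 54.1 CPM at T0. With the legacy library they summed to 16.1 and 14.4 CPM under dasatinib, against 5.27 and 4.76 CPM under DMSO and 44.8 and 33.0 CPM at T0. FH was thus less depleted from T0 in dasatinib-treated than in DMSO-treated cells in both pools. The legacy phenotype of 1.79 ± 0.29 over 3 guides was called (n = 2, exact adjusted p = 0.000962) and, with 10 CPM added, was 0.40 and not called. Without dasatinib replicate 1 too few FH guides were left for a score. edgeR on summed counts gave 1.29 ± 0.37 with LGR and 1.65 ± 0.30 with legacy (SE, adjusted p of 0.185 and 0.0254).

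DLST sums were 17.4 and 16.2 CPM in LGR dasatinib libraries, against 11.4 and 10.8 CPM in DMSO libraries, and IDH3A P1 sums 35.3 and 25.1 CPM, against 15.1 and 14.1 CPM. With the legacy library DLST summed to 19.1 and 14.0 CPM, against 10.1 and 12.0 CPM, and IDH3A P1 to 46.4 and 31.7 CPM, against 15.3 and 20.9 CPM. Neither gene was called by edgeR on summed counts, where the 10 guides of IDH3A were added together. DLD summed to 3.36 and 3.82 CPM under dasatinib, against 3.25 and 7.35 CPM under DMSO, with LGR, and to 0.826 and 1.14 CPM, against 1.66 and 1.57 CPM, with legacy. Both legacy dasatinib libraries lay below both DMSO libraries, while the LGR groups overlapped, and neither difference was called by edgeR on summed counts (log2 fold changes of -0.51 ± 0.53 with LGR and -0.66 ± 0.67 with legacy, SE, adjusted p of 0.695 and 0.668). SDHC summed to 0.997 and 3.26 CPM, against 1.57 and 2.60 CPM, with LGR and to 1.52 and 5.05 CPM, against 1.78 and 2.96 CPM, with legacy, and the groups overlapped in both. Guides of DLD and SDHC had 0 to 44 counts in these LGR libraries and 0 to 73 in these legacy libraries. OGDH in the LGR library shows what 1 guide can do, with sums of 51.8 and 20.8 CPM under dasatinib against 11.9 and 12.8 CPM under DMSO, in which the guide at 44646669 alone had 659 and 159 counts, against 85 and 92. The OGDH phenotypes were 1.04 ± 0.40 and 0.49 ± 0.38, not called.

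The other members gave no dasatinib calls. SDHD had phenotypes of -1.10 ± 0.15 with LGR and -0.42 ± 0.04 with legacy, and SUCLG2 of -0.96 and -0.21. SDHA and SDHB lay between 0.15 and 1.17, each scored on 3 of its 5 guides. The SDHA guides at 218477 and 218484 were too scarce to enter in either pool. So were the SDHB guides at 17380484 and 17380537 with LGR and those at 17380537 and 17380474 with legacy. The highest value was that of SDHB with LGR (1.17 ± 1.03, n = 2). It included the guide at 17380474, with 100 and 10 counts under dasatinib, against 6 and 6 under DMSO. Succinate dehydrogenase belongs to oxidative phosphorylation, a pathway that the study singled out on these same dasatinib samples, so its values here are not independent of that choice. IDH3B went opposite ways in the pools, -0.38 ± 0.34 with LGR and 0.97 ± 0.07 with legacy, and SUCLG1 (0.05 and 0.45), SUCLA2 (-0.16 and 0.82), IDH3G (-0.17 and -0.28) and MDH2 (-0.24 and -0.85) were not called either.

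Differences between screens were tested with an edgeR interaction term on counts summed per gene. For 100-fold against 1000-fold coverage 0 of 22 member genes were called, and 0 had an unadjusted p under 0.05 (0% of all genes called, and 228 of 18788 with such a p). The farthest apart was DLD, at -0.71 ± 0.38 (SE) between the 2 Tf/T0 effects. For LGR against legacy in DMSO/T0, 0 of 22 were called and 2 had an unadjusted p under 0.05. Over all genes, 0.729% were called and 1888 of 18788 had such a p. Of the members, SDHD led with 0.47 ± 0.16 (adjusted p = 0.209). In dasatinib/DMSO, 0 of 22 were called and 3 had an unadjusted p under 0.05. Over all genes, 0.0106% were called and 2098 of 18788 had such a p. The 3 member genes were PDHB, OGDH (1.34 ± 0.52, adjusted p = 0.377) and IDH3B (-0.58 ± 0.25, adjusted p = 0.424). A missed threshold does not show equal effects. For PDHA1 in dasatinib/DMSO the difference was -0.39 ± 0.28.

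Genes that supply cofactors or regulate these enzymes were looked at as lists. Over all genes, the gene score called 7.11% lower at 100-fold coverage, 7.75% at 1000-fold coverage, 6.18% with LGR DMSO and 5.63% with legacy DMSO. Under dasatinib the share was 0.402% with LGR and 0.511% with legacy. Of the 14 genes of lipoylation and mitochondrial fatty acid synthesis, whose product lipoate is attached to DLAT and DLST, 3 fell at each coverage. They were NDUFAB1, the mitochondrial acyl carrier protein (-3.33 ± 0.43 at 100-fold and -2.87 ± 0.26 at 1000-fold coverage), the iron-sulfur assembly factor ISCA2 (-1.63 ± 0.04 and -1.46 ± 0.09) and MCAT, the malonyl-CoA transferase (-0.66 ± 0.27 and -0.30 ± 0.06). With LGR DMSO, 4 fell, the same 3 and OXSM, the condensing enzyme (-0.84 ± 0.22), and with legacy DMSO, 3 fell, which were ISCA2, MCAT and BOLA3 (-0.87 ± 0.03). LIAS, LIPT1 and LIPT2, also on this list, were scored and not called in these 4 comparisons. The median phenotype of this list was -0.42, -0.19, -0.70 and -1.01 in them, against -0.11, -0.05, -0.11 and -0.12 over all genes. Under dasatinib, 0 of 12 scored were called with LGR and 1 with legacy, BOLA3 (-1.44 ± 0.17).

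The 7 pyruvate dehydrogenase kinases and phosphatases and the 8 scored of 9 aconitases, isozymes and paralogs gave 0 calls in all 6 comparisons. Lists this short would not show a share below that of all genes. Of 2 scored SDH assembly factors, SDHAF1 fell at 1000-fold coverage (-0.61 ± 0.05) and with legacy DMSO (-1.10 ± 0.02). Of 16 scored genes of anaplerosis and carriers, 1 fell at 100-fold coverage, ACLY, the ATP citrate lyase (-1.68 ± 0.26), near the 7.11% of all genes. With legacy dasatinib 1 fell, GOT2, the mitochondrial aspartate aminotransferase (-1.25 ± 0.44), beside 0.511% of all genes.

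Guides of another gene lay within 1000 bp of a member guide for 7 members, by hg19 positions on the same chromosome. The neighbours were CIB2 (143 bp from an IDH3A guide), SSR4 (IDH3G), STYXL1 (MDH2), DCAF6 (MPC2), APIP (PDHX), CCDC127 (SDHA) and TIMM8B (159 bp from an SDHD guide). None of the 7 was called in any of the 6 comparisons. None of the genes called under dasatinib in either pool (PDHA1, PDHB, DLAT, MPC1, CS and FH) had such a neighbour.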

How the data were processed

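Files hold raw read counts per sgRNA, 1 library each, which the authors made with ScreenProcessing and deposited without normalization. The submitters' processing notes name bcl2fastq and hg19, with versions not given in the sources used here. Used were 22 screen libraries and 2 plasmid pools. The LGR plasmid pool, whose labels and title name opposite libraries, was taken by title. The titration, CRISPRa and pilot pools, and the LGR CRISPRi plasmid pool read on a NextSeq, were not used here.

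Members are guides whose ID carries a listed gene symbol. Members, lists and tests were chosen with earlier results of these data known. All 22 genes are named, with single guides among the 10 largest calls per comparison and direction, the listed pathway genes called (1 list is not reported here), and neighbours within 1000 bp. Further guides that set a gene's value apart were chosen after their values were seen.

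Guides were fitted over the whole table with edgeR 4.0.16 (TMM, glmQLFit, glmQLFTest) in R 4.3.3, with Benjamini-Hochberg adjustment. The lone 1000-fold T0 library was assumed to vary like Tf. The gene score (scipy 1.17.1, pandas 2.3.3 and numpy 2.4.6 under Python 3.11.15) used CPM of all guides with a count of 0 set to 1, and a gene with several start sites took the one of lowest p. Fold changes of guides are log2 values computed from the deposited counts. Alternatives were total counts, DESeq2 1.42.0, other count minimums, all 6 samples of a library, a replicate block, leaving out each library, no centring, pseudo-genes of 5 non-targeting guides, edgeR on summed counts, the mean of all guides and 10 CPM added. The steps were tested on simulated data. Each library was counted as its own sample. Within each group, libraries differed by more than counting noise (chi-square per degree of freedom of 3.69 to 28.6), which does not show that they were independent cultures.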

Additional observations from a re-analysis of the deposited data

Results flagged for a closer look

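In the 100-fold survival screen, with 4 Tf libraries, 3 of 23 start sites had 1 library far from the others (its gap to the nearest one, divided by the range of all 4, was above Dixon's critical value). Chance gives this in about 1 of 20 groups. The phenotype of MDH2 was -0.17 in 1 Tf library and 0.05 to 0.09 in the other 3. MPC2 was at -0.31 in 1 library and 0.24 to 0.35 in the other 3. SUCLG2 was at 0.0857 in 1 library and 0.27 to 0.29 in the other 3. None of these genes was called in this comparison. No difference between coverages or between libraries passed the threshold for a member gene.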

How the results depend on the processing

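Of the member phenotypes recomputed under the alternatives, 866 kept their call and direction or moved by less than the SD, 219 moved by more, 16 gained a call and 25 lost one, and no called value changed sign. Of the counts in the report, total counts in place of TMM gave 6 guides higher at 1000-fold coverage, beside 2852 of all 103002 guides. DESeq2 gave 2 guides higher at 100-fold coverage and 7 lower and 2 higher with dasatinib in each library. Over all guides it gave 609 higher at 100-fold coverage. With dasatinib it gave 355 lower and 1743 higher of all guides with LGR and 369 and 2044 with legacy. With all 6 samples of a library fitted together, 8 member guides were lower and 0 higher in LGR DMSO against T0 and 6 and 0 in legacy DMSO against T0. Dasatinib gave 6 lower and 1 higher with LGR and 8 and 2 with legacy in those fits. Over all guides they gave 1678 lower and 0 higher, 2471 and 3, 232 and 950, and 461 and 1883 in the same order. With a minimum of 1 count, legacy dasatinib gave 1 member guide higher, beside 617 of all 101935. A minimum mean of 10 counts gave 8 genes lower in legacy DMSO against T0, 1 higher in LGR dasatinib and 2 higher in legacy dasatinib. Over all genes these were 1295 of 18668, 195 of 18455 and 214 of 18464. Pseudo-genes gave 0 genes higher in LGR DMSO and 8 lower in legacy DMSO against T0, beside 6 of 18507 and 1550 of 18262. edgeR on summed counts gave 3 genes higher at 1000-fold coverage, 8 lower and 1 higher in legacy DMSO against T0, and 2 lower in legacy dasatinib. Over all genes these were 693, 1899 and 230, and 72. The cause was not tested.

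Leaving out each library in turn, guides called lower numbered 34 to 35 at 1000-fold coverage, 14 to 30 at 100-fold coverage, 13 to 35 in LGR DMSO, 11 to 32 in legacy DMSO and 0 to 21 with dasatinib in each library, and guides called higher 3 to 5, 0 to 0, 0 to 5, 0 to 2, 0 to 11 (LGR dasatinib) and 0 to 9 (legacy dasatinib). Genes called lower numbered 7 to 7, 8 to 10, 5 to 7, 4 to 6, 1 to 2 and 2 to 4 in the same order, and genes called higher 0 to 1 in LGR DMSO and legacy dasatinib and 0 elsewhere. Differences between libraries under dasatinib gave 0 to 1 genes, with the 1 appearing without LGR dasatinib replicate 1. The highest counts of member guides called higher under dasatinib came from fits that leave 1 dasatinib library. Those fits also called far more of all guides higher than the main fits did. The share called higher among member guides was not above that of all guides there. These counts therefore do not set the member guides apart.

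With a replicate block, 6 guides were lower and 1 higher in LGR dasatinib, 8 and 3 in legacy dasatinib, and 31 and 0 at 100-fold coverage. Over all guides those fits called 189 lower and 785 higher, 397 and 2041, and 5877 and 296 in the same order. Deviations of same-numbered libraries correlated at 0.00196, 0.000866 and 0.000768 in these comparisons, so the numbers do not pair the libraries. Guides under 50 counts numbered 48 of 113 in LGR dasatinib libraries, which limits what can be seen for genes already depleted.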
